A study of Mus musculus with 54 samples.

Results

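The interferon-stimulated genes described here are a set of 40 antiviral genes, chosen by symbol and followed with swim training across 7 mouse tissues. A member was measured where the platform annotation gave it a probe set (a group of probes that report 1 gene) shared with no other gene. That held for 36 of the 40 members, out of 18759 gene symbols with such a probe set on the array, and each of the 36 had 1 such probe set. Ifi44 was not listed in the annotation, Igtp was listed only on a probe set shared with Irgm2, and Parp9 and Dtx3l were listed only on 2 probe sets that they share with each other, so these 4 members were not analysed here.

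Total RNA of C57BL6 mice aged 14 weeks was hybridised to 54 single-colour whole-transcript arrays. Swim mice had begun at 11 to 12 weeks of age with 9 days of acclimation in sessions that grew by 10 min, and then swam 2 sessions of 90 min a day, 4 h apart, for 3 weeks. What control mice did in those weeks is not stated in the labels, and no genotype, allele or agent other than the strain and the swimming is given. The arrays comprised 4 swim and 4 control arrays each of visceral white adipose tissue (visceral fat), subcutaneous white adipose tissue (subcutaneous fat), kidney, spleen and brain, 4 swim and 3 control arrays of liver, and 3 swim and 4 control arrays of skeletal muscle. The labels tie no array to an animal, a pool, a day or the time since the last session, so that the p-values below measure the spread between these samples only.

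Type I interferons are secreted proteins that bind a shared receptor on most cells. The receptor's kinases then activate transcription factors, STAT2 with IRF9 among them, that bind a short DNA element, the interferon-stimulated response element (ISRE), in front of antiviral genes. Interferon gamma acts on a different element, the gamma-activated sequence (GAS). The products of the induced genes sense viral nucleic acid, degrade RNA, block translation, trap virus at membranes or feed back on the pathway, and most cells, macrophages among them, transcribe some of them at a low tonic level without infection.

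The promoter stretches below are shown because they hold the element through which the pathway acts, in members of different roles that are followed through the tissues. They are RefSeq sequences (build GRCm38.p6) of 90 bases each from the 250 bases before the annotated transcript start, printed 5′ to 3′ on the gene's strand, and the capitals mark every match to the ISRE letters (GAAA, then NN, then GAAA, where N is any base) on either strand. Isg15 (a ubiquitin-like protein joined to other proteins) lies at chr4:156200835-156200924 on the minus strand. Oas1a and Oas3 (oligoadenylate synthetases, which switch on RNase L) lie at chr5:120907526-120907615 and chr5:120777685-120777774, both on the minus strand. Ifit1 (which binds foreign RNA ends) lies at chr19:34640764-34640853 on the plus strand, and Rsad2 (viperin, a radical SAM enzyme) at chr12:26456523-26456612 on the minus strand. Bst2 (tetherin, which holds budding virus at the cell surface) lies at chr8:71537547-71537636 on the minus strand. The GTPase genes Irgm1 and Gbp2 lie at chr11:48871421-48871510 on the minus strand and chr3:142620564-142620653 on the plus strand.
Isg15: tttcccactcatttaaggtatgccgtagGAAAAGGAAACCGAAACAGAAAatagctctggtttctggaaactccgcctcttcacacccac
Oas1a: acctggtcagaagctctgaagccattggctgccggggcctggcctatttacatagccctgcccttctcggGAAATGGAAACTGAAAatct
Oas3: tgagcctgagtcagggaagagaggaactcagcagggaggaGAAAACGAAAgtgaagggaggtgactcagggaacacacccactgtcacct
Ifit1: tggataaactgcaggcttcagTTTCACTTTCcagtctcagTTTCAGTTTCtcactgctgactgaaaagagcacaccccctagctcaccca
Rsad2: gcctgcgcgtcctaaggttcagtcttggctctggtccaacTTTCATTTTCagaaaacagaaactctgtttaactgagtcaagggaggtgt
Bst2: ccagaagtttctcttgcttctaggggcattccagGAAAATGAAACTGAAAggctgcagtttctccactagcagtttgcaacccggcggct
Irgm1: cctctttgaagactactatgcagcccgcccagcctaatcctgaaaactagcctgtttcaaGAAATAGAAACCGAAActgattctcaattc
Gbp2: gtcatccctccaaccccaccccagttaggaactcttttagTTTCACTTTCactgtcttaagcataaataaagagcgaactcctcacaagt

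Promoter entries were matched for 31 of the 40 members by symbol. The ISRE letters were found in 13 of these 31 (41.9%), and in 936 of the 27025 genes with an entry (3.46%). The 13 were Bst2, Gbp2, Gbp3, Ifit1, Ifit3, Igtp, Irgm1, Isg15, Oas1a, Oas3, Rsad2, Stat2 and Trim30a. The GAS letters TTCNNNGAA, searched on both strands of the same windows, were found in 5 members (16.1%) and in 2197 of all genes (8.13%), and 1 of those 5 matches, in Bst2, overlaps an ISRE match. No ISRE match lies in the window of Irf7, Lgals3bp or Oasl2, which says only that these letters are not in those 250 bases.

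Each tissue carried its own defining gene at high signal: Cd79a for spleen, Adipoq for both fats, Ckm for muscle, Snap25 for brain, Umod for kidney and Alb for liver. Levels here are log2(signal + 16) after quantile normalization within a tissue, which understates changes of dim genes. Subcutaneous fat varied in makeup between arrays. Umod, a kidney tubule protein, read 15.24 on swim array 22 of subcutaneous fat and 15.31 on every kidney array, and the muscle enzyme Ckm read 11.51 on swim array 23. B cell markers (mean of 9 genes) stood at 5.79, 8.68, 9.95 and 5.39 in subcutaneous fat of swim mice on arrays 21 to 24, against 5.74 on control array 17 and between 11.08 and 11.12 on control arrays 18 to 20. The lymph node gene Glycam1 was bright on the arrays with the higher B cell values. The swim differences of subcutaneous fat are therefore given with and without arrays 17, 22 and 23 below. Markers of other organs also varied elsewhere. The summed signal of 4 hepatocyte markers was 127 to 8069 in control spleens and 212 to 1544 in spleens of swim mice. That of 4 skeletal muscle markers was 130 to 3973 in control livers and 158 to 179 in livers of swim mice. In brain the muscle sum was 207 to 1284 in control mice and 157 to 211 in swim mice.

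In control mice the level of the 36 members differed between organs. Normalized over all 54 arrays, 16 of the 36 were at their highest in spleen, 10 in subcutaneous fat, 8 in liver and 2 in visceral fat, and 31 were at their lowest in brain. The median member level was 8.74 in subcutaneous fat, 8.51 in spleen, 8.29 in liver, 7.72 in visceral fat, 7.10 in kidney, 6.73 in muscle and 5.70 in brain. Most control arrays of subcutaneous fat carried the B cell signal given above, and the place of that tissue without them was not computed. The widest span belonged to Ifi27l2a (a small mitochondrial protein of the interferon response), at 12.24 ± 0.27 in visceral fat and 4.75 ± 0.11 in brain of control mice (SD, n = 4 each), a range of 7.49. Rsad2 averaged 10.87 ± 0.12 in spleen and 5.73 ± 0.09 in brain (SD, n = 4 each). These levels are a description, with no test between organs.

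**Figure D1:**
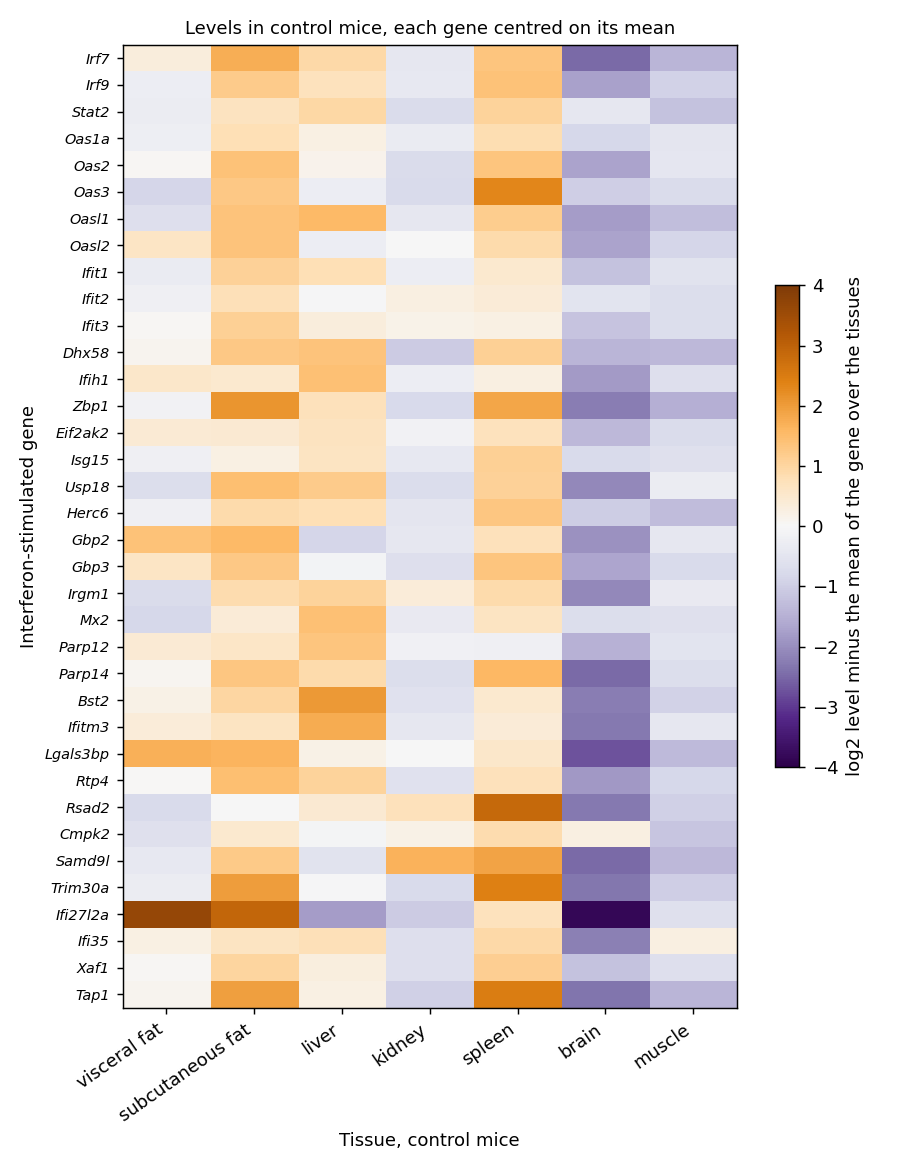
Level of each of the 36 members in control mice by tissue (colour), as log2(signal + 16) after quantile normalization over all 54 arrays, averaged over 3 or 4 control arrays and with the gene's own mean over the tissues subtracted. The brain column holds the lowest level of 31 members and the spleen column the highest of 16.

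After swim training the members were lower in spleen, liver and kidney, mixed in visceral fat, and changed in few cases in muscle and in none in brain. Each tissue was tested alone with limma over all genes above a low-signal filter, and a gene passed where its Benjamini-Hochberg adjusted p, taken over all genes tested in that tissue, was under 0.05. In spleen 21 of 36 tested members were lower and 0 higher, where 6.97% of all genes tested were lower and 7.04% higher. In liver 10 of 34 were lower and 0 higher, where 2.16% of all genes were lower and 1.84% higher. In kidney 10 of 30 were lower and 0 higher, where 13.6% of all genes were lower and 10.8% higher. In visceral fat 7 of 32 were lower and 2 higher, where 12.1% of all genes were lower and 11.3% higher. With visceral fat arrays centred on their medians, which moves the median of all genes to -0.22, 11 members were lower and 0 higher there, and 2 were lower and 0 higher on the values as deposited. In muscle 2 of 29 were lower and 1 higher, where 5.68% of all genes were lower and 5.68% higher. In brain 0 of 16 passed in limma's test in either direction, where 0.0516% of all genes were lower and 0.43% higher, and 1 member was lower (8.41% of all genes) and 1 higher (7.93%) at an unadjusted p under 0.05. In subcutaneous fat 0 of 34 passed, where 0% of all genes passed, and 28 of the 34 were lower at an unadjusted p under 0.05, where 11.1% of all genes were. The members that did not enter a tissue's test fell to its low-signal filter, which looks at the mean over both groups.

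The median difference of the tested members, swim minus control on the log2 scale, was -0.36 in spleen, -0.45 in liver, -0.16 in kidney, -0.07 in visceral fat, -0.89 in subcutaneous fat, -0.03 in brain and -0.03 in muscle. The median of all genes tested lay between -0.03 and 0.05 in each tissue. All 34 members tested in liver had a negative difference, and in 27 of them every swim array lay below every control array, where 10.7% of all genes did so. Such separation was seen for 20 of 36 members in spleen (11% of all genes), 11 of 30 in kidney (15.2%) and 18 of 34 in subcutaneous fat (5.52%). Because whole tissue was measured, fewer cells of a type and less RNA per cell cannot be told apart in these or the following results.

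**Figure D2:**
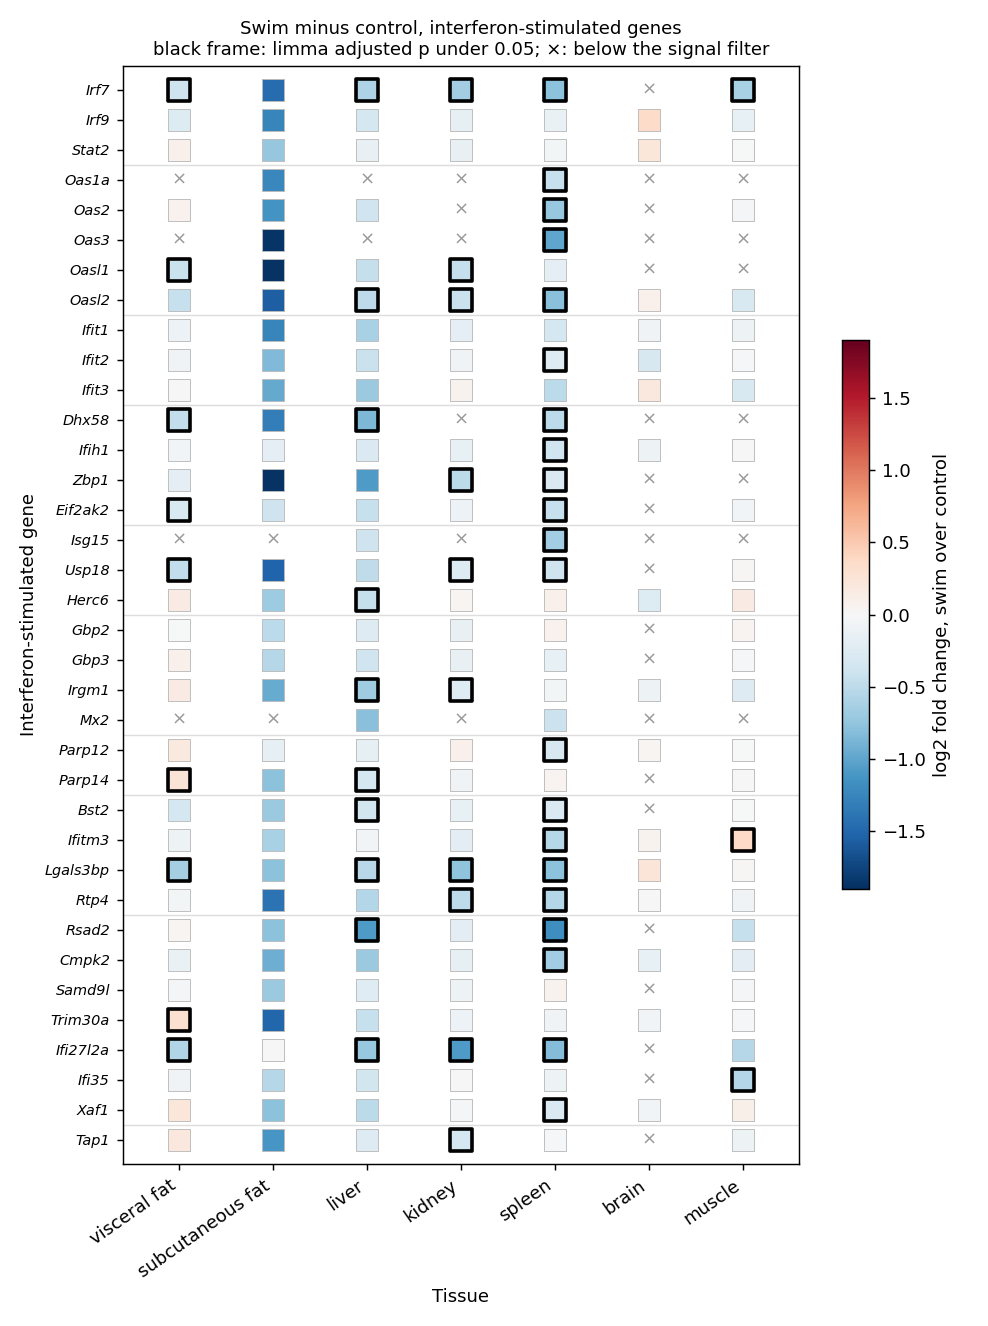
Swim minus control difference in log2(signal + 16) (colour) for each of the 36 members (grouped by role) in each tissue, with a black frame on those that passed limma's test and a cross on those below the signal filter. Framed squares lie mostly in spleen (21 lower), liver (10 lower) and kidney (10 lower), while the unframed subcutaneous fat column holds the deepest differences, down to -1.88.

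The mean of the 36 members on each array shows how far this held sample by sample. It lay between 8.10 and 8.33 in spleens of swim mice, against 8.52 to 8.69 in control spleens. It lay between 7.51 and 7.63 in livers of swim mice, against 7.94 to 8.24 in control livers. It lay between 7.0 and 7.12 in kidneys of swim mice, against 7.23 to 7.33 in control kidneys. These 3 pairs of groups did not overlap. It lay between 7.52 and 7.97 in subcutaneous fat of swim mice, against 8.39 to 8.97 in control mice, also apart, with control array 17 the lowest of its group. The groups overlapped in visceral fat (7.59 to 7.67 in swim mice, 7.64 to 7.79 in control mice), in muscle (6.29 to 6.47 in swim mice, 6.42 to 6.59 in control mice) and in brain (5.93 to 6.18 in swim mice, 6.01 to 6.13 in control mice).

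**Figure D3:**
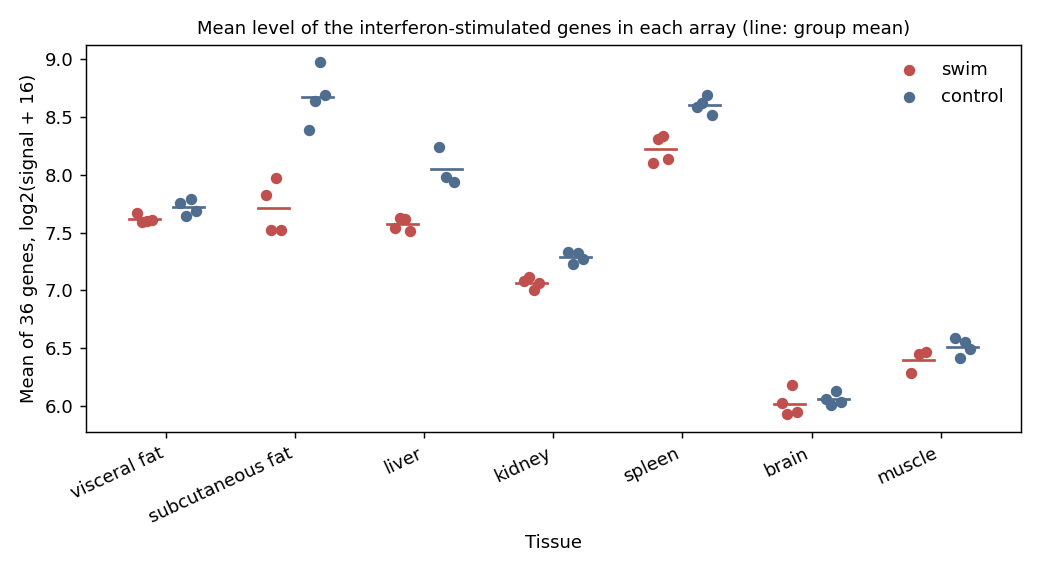
Mean level of the 36 members on each array, in log2(signal + 16) after quantile normalization within the tissue, with 1 point per array and a line at each group mean, swim left of control. Swim arrays lie wholly below control arrays in subcutaneous fat, liver, kidney and spleen (8.10 to 8.33 against 8.52 to 8.69 in spleen).

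Some markers of macrophages, cells that transcribe many of these genes, were lower in liver, kidney, spleen and muscle, and some higher in visceral fat. Of all genes tested, 2.16% were lower in liver, 13.6% lower and 10.8% higher in kidney, and 6.97% lower and 7.04% higher in spleen. In muscle 5.68% were lower, and in visceral fat 12.1% were lower and 11.3% higher. In liver 10 of 15 tested macrophage markers were lower, with a summed signal of 3578 to 5478 in swim mice, against 7799 to 8219.7 in control mice. In kidney 11 of 12 were lower (1470.4 to 1833 in swim mice, 2273 to 2638 in control mice), as were 2 of 2 monocyte markers, 1 of 2 plasmacytoid dendritic cell markers and 1 of 2 B cell markers, and of 7 endothelial markers 1 was lower and 3 higher. In spleen 10 of 15 were lower (9838 to 13163 in swim mice, 13732 to 15254 in control mice), as were 5 of 5 monocyte markers and 9 of 10 neutrophil markers (753 to 1229 in swim mice, 3661 to 8308 in control mice). Of 7 endothelial markers 3 were lower in spleen, and of 10 T and NK cell markers 2 were lower and 3 higher. In spleen 0 of 9 B cell markers passed in limma's test, and of 6 markers of plasmacytoid dendritic cells, which make type I interferon, 1 was higher. In visceral fat 0 of 14 macrophage markers were lower and 4 were higher (7603 to 11879 in swim mice, 5076 to 9538 in control mice), and 4 of 7 endothelial markers were higher too. In muscle 4 of 13 macrophage markers were lower (1374 to 1614 in swim mice, 1652 to 2504 in control mice), in brain 0 of 11 passed and in subcutaneous fat 0 of 15 passed, with a median of -1.11. The summed macrophage signal did not overlap between groups in liver, kidney, spleen and muscle. Among single genes, every swim array lay below every control array for 10.7% in liver, 15.2% in kidney and 11% in spleen. That share is not given here for muscle, visceral fat or brain. Arrays described as apart in those tissues, here and below, therefore have no share beside them. With the macrophage marker mean as a covariate, the members' median was -0.34 in liver, -0.31 in kidney and -0.33 in spleen, and 0, 0 and 1 members passed. Over all genes 3, 0 and 1 passed with that covariate, against 448, 2836 and 1591 without it, so the loss of calls was not confined to the members. Ifi27l2a in kidney was then 0.06. With the neutrophil marker mean as a covariate, tried after seeing the data, 0 members and 0 genes of any kind passed in spleen, the members' median was -0.31, and Rsad2 and Ifitm3 were 0.06 and 0.03. In the organs of these fits the summed signal behind each covariate was itself apart between groups. The fits therefore cannot separate either signal from swimming, and nothing is concluded from them.

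The counts by organ rested on few arrays. In liver 1 member passed without swim array 53, 54 or 56, 4 without swim array 55 or control array 49, and 3 without control array 50, with 127 to 250 genes of all kinds passing, against 448 with all arrays. In spleen 8 passed without control array 25 or 26, 9 without 27, 13 without 28 or without swim array 29, and 11 without swim array 32, with 571 to 1426 genes of all kinds passing in these settings, against 1591 with all arrays. In kidney leaving out 1 array left 8 to 12. In visceral fat the count was 4 to 7, changing by over 1.5 times without control array 3 or 4 or swim array 6, 7 or 8 (1695 to 2214 genes of all kinds, against 2677), and in muscle it was 1 without swim array 46 (69 genes of all kinds, against 1289). On the values as deposited, with no normalization added, 1 member passed in kidney (42 genes of all kinds, against 2836) and 2 in visceral fat (601, against 2677). The same values gave 13 members in liver (501, against 448) and 32 in spleen (5127, against 1591).

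Of the transcription factors, Irf7 changed most widely and its partners did not pass anywhere. Irf7, the factor that amplifies type I interferon production, read 7.88, 8.13, 8.14 and 7.98 in spleens of swim mice, against 8.81, 8.81, 8.89 and 8.73 in control spleens. It read 6.67, 6.54, 6.53 and 6.67 in kidneys of swim mice, against 7.37, 7.12, 7.37 and 7.17 in control kidneys. In both organs every swim array lay below every control array. The difference was -0.78 (SE 0.07, limma adjusted p = 0.00284) in spleen and -0.66 (SE 0.07, adjusted p = 0.000367) in kidney, a 1.72-fold and a 1.58-fold lower level.

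In liver Irf7 read 7.82, 8.05, 7.84 and 7.87 in swim mice, against 8.77, 8.43 and 8.25 in control mice, a difference of -0.58 (limma adjusted p = 0.0403). In visceral fat it read 7.82, 7.45, 7.72 and 7.52 in swim mice, against 8.03, 7.95, 8.18 and 7.93 in control mice, a difference of -0.40 (limma adjusted p = 0.0199). In muscle it read 5.16, 5.30 and 5.48 in swim mice, against 6.19, 5.55, 6.03 and 5.97 in control mice, a difference of -0.62 (limma adjusted p = 0.0387). These 3 pairs of groups were also apart, though narrowly in muscle, where swim array 47 and control array 42 were 5.48 and 5.55. The liver call was lost without control array 49 or 50 or any 1 of the swim arrays (adjusted p up to 0.0943), the visceral fat call without swim array 6 or 8, and the muscle call without any 1 of the 3 swim arrays (up to 0.114). In brain Irf7 was below the filter. Irf9 and Stat2, parts of the complex that binds the ISRE, were tested in all 7 tissues and passed in none, Irf9 with -0.13 in spleen, -0.34 in liver (limma adjusted p = 0.0532) and 0.36 in brain (adjusted p = 0.199).

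The Oas family (Oas1a, Oas2 and Oas3, which make the messenger that activates RNase L, and the related Oasl1 and Oasl2) had 4 of 5 members lower in spleen, with a median difference of -0.71. Of all genes 6.97% were lower there. Oas3 read 7.12, 7.69, 7.13 and 7.14 in spleens of swim mice, against 8.23, 8.46, 8.50 and 7.91 in control spleens, and fell by 1.01 on the log2 scale (limma adjusted p = 0.0099). Oas1a read 6.24, 6.23, 6.34 and 6.36 in spleens of swim mice, against 6.78, 6.64, 6.72 and 6.81 in control spleens, a difference of -0.44 (limma adjusted p = 0.0062). Swim and control arrays were apart for both genes, and swim array 30 stood above its group for Oas3. Oas2 (-0.71) and Oasl2 (-0.79) were also lower, with arrays apart, while Oasl1 differed by -0.19 with overlapping arrays (adjusted p = 0.215).

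Outside spleen the calls in this family belonged to Oasl1 and Oasl2, and Oas1a and Oas3 were tested only in spleen and subcutaneous fat. In kidney both tested members passed, Oasl1 at 6.16, 6.18, 5.82 and 6.05 in swim mice, against 6.62, 6.52, 6.37 and 6.50 in control mice (difference -0.45, limma adjusted p = 0.00451). Oasl2 differed by -0.43 in kidney (adjusted p = 0.00111). In liver 1 of 3 passed, Oasl2 at -0.49 (adjusted p = 0.0385), and Oasl1 missed the threshold at -0.46 (adjusted p = 0.0504). In visceral fat 1 of 3 passed, Oasl1 at -0.42, and in muscle 0 of 2 and in brain 0 of 1. Of all genes 13.6% were lower in kidney, 2.16% in liver, 12.1% in visceral fat, 5.68% in muscle and 0.0516% in brain. Oas1a did not reach the filter in visceral fat, liver, kidney, brain or muscle, where no array read above 5.86.

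The Ifit family (Ifit1, Ifit2 and Ifit3, which bind viral RNA and hold back its translation) passed in 1 of 21 member-by-tissue tests. The share of all genes that were lower ran from 0% in subcutaneous fat to 13.6% in kidney, with 6.97% in spleen. The pooled count is therefore not read as a trait of the family. Ifit2 read 6.69, 6.71, 6.93 and 6.69 in spleens of swim mice, against 7.0, 7.02, 7.04 and 6.91 in control spleens, a difference of -0.24 (limma adjusted p = 0.0458), with swim array 31 above control array 28. Ifit3 missed narrowly in spleen (-0.51, adjusted p = 0.0512) and in liver (-0.70, adjusted p = 0.0563). Ifit1 read 7.22, 7.17, 7.11 and 7.13 in livers of swim mice, against 8.33, 7.32 and 7.68 in control livers, where control array 49 stood far above control array 50 (difference -0.62, limma adjusted p = 0.124). In kidney the 3 genes lay between -0.19 and 0.07, and in visceral fat between -0.12 and 0.01.

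The sensors and the kinase were lower together in spleen and in part elsewhere. All 4 passed in spleen: Dhx58 (LGP2, a helper of RIG-I-like receptors) at -0.52, Ifih1 (MDA5, which detects long double-stranded RNA) at -0.38, Zbp1 (a Z-form nucleic acid sensor) at -0.27 and Eif2ak2 (PKR, which halts translation on double-stranded RNA) at -0.44. Dhx58 had the smallest p of all members in liver, at 7.44, 7.47, 7.22 and 7.36 in swim mice, against 8.40, 7.94 and 8.33 in control mice. Its difference there was -0.85 (limma adjusted p = 0.0128), 1.80-fold lower, with the arrays apart. Zbp1, singled out after its values were seen, had a deeper difference in liver (-1.08) that did not pass (adjusted p = 0.0593), its control arrays spreading over 8.30, 7.96 and 7.01. In kidney 1 of 3 passed, Zbp1 at -0.51 (adjusted p = 0.00287), and in visceral fat 2 of 4, Dhx58 at -0.46 and Eif2ak2 at -0.30. None of the 2 tested in muscle or the 1 tested in brain passed. The shares of all genes lower were 6.97% in spleen, 2.16% in liver, 13.6% in kidney and 12.1% in visceral fat.

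In the ubiquitin-like group, Isg15 and Usp18 (the protease that removes Isg15 and restrains the receptor) were lower in spleen, and Herc6 (the mouse ligase for Isg15) was not. Isg15 read 6.01, 6.59, 5.99 and 5.80 in spleens of swim mice, against 6.73, 6.94, 6.79 and 6.60 in control spleens. Swim array 30 came closest to the control arrays, without reaching them. The difference was -0.67 (limma adjusted p = 0.0273). Usp18 was lower in spleen (-0.39), in visceral fat (-0.46, adjusted p = 0.0102) and in kidney (-0.26, adjusted p = 0.0314). Herc6 passed in liver (-0.45, adjusted p = 0.0381) and in none of the other 6 tissues, with 0.10 in spleen. Isg15 differed by -0.40 in liver without passing (adjusted p = 0.203).

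The GTPases are the guanylate-binding proteins Gbp2 and Gbp3 and Irgm1, which act on the membranes around intracellular pathogens, and the dynamin-like Mx2. None of the 4 passed in spleen in limma's test, and 1 of them, Gbp3, was lower there at an unadjusted p under 0.05, where 16.8% of all genes were. Gbp2 read 8.37, 8.50, 8.29 and 8.19 in spleens of swim mice, against 8.14, 8.27, 8.39 and 8.20 in control spleens, a difference of 0.09 with overlapping arrays (-0.23 on the values as deposited and -0.04 with arrays centred on their medians). In liver 1 of 4 passed, where 2.16% of all genes were lower. Irgm1 read 9.22, 9.28, 9.24 and 9.40 in livers of swim mice, against 10.29, 9.83 and 9.74 in control livers, and fell by 0.67 (limma adjusted p = 0.0302). Irgm1 also passed in kidney, at -0.23 (adjusted p = 0.0228). In visceral fat 0 of 3 passed in limma's test, with a median of 0.10, where 12.1% of all genes were lower and 11.3% higher. Gbp2 passed in none of the 6 tissues where it was tested.

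Of the Parp family, Parp12 (an ADP-ribosyltransferase that represses translation) was lower in spleen (-0.33, limma adjusted p = 0.0314), and Parp14 (a macro-domain ADP-ribosyltransferase) was lower in liver and higher in visceral fat. Parp14 read 8.20, 8.15, 8.22 and 8.18 in livers of swim mice, against 8.58, 8.44 and 8.56 in control livers (difference -0.34, limma adjusted p = 0.028). In visceral fat it read 8.07, 8.03, 8.16 and 8.07 in swim mice, against 7.88, 7.69, 7.96 and 7.79 in control mice (difference 0.26, limma adjusted p = 0.0419). The arrays were apart in both organs, in opposite directions.

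Among the membrane and secreted members Lgals3bp was lower in 4 tissues. Lgals3bp, a secreted glycoprotein that binds galectins, read 9.18, 9.18, 9.36 and 8.95 in spleens of swim mice, against 10.05, 9.76, 9.98 and 10.01 in control spleens (difference -0.78, limma adjusted p = 0.00578). It read 9.17, 8.91, 8.99 and 8.81 in kidneys of swim mice, against 9.84, 9.73, 9.58 and 9.80 in control kidneys (difference -0.77, limma adjusted p = 0.000407). It read 11.03, 10.79, 10.88 and 10.63 in visceral fat of swim mice, against 11.53, 11.61, 11.30 and 11.46 in control mice (difference -0.64, limma adjusted p = 0.00315). The arrays were apart in all 3 tissues. Lgals3bp was lower in liver as well (-0.53, adjusted p = 0.0405), with arrays apart. It did not pass in brain (0.24), muscle (0.02) or subcutaneous fat (-0.78).

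The other 3 members of that group were lower in spleen too: Bst2 (-0.27), Ifitm3, which blocks entry of virus at endosomes (-0.54), and Rtp4, a transmembrane protein known to restrain interferon responses in mice (-0.55). Rtp4 had the smallest p of all members in kidney, at 6.68, 6.72, 6.67 and 6.60 in swim mice, against 7.07, 7.20, 7.18 and 7.19 in control mice. Its difference there was -0.49 (limma adjusted p = 0.000259), and the lowest control array, 9, stood clear of the swim arrays. Bst2 passed in liver (-0.36, adjusted p = 0.0311). Ifitm3 was higher in muscle, at 10.34, 10.17 and 10.13 in swim mice, against 9.85, 9.81, 9.80 and 9.90 in control mice (difference 0.37, limma adjusted p = 0.0199). That call was lost on the values as deposited (0.09) and with arrays centred on their medians (0.21), 2 scalings under which the median of all muscle genes moved to -0.23 and -0.11.

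Among the remaining effectors, Ifi27l2a and Rsad2 had the largest differences of those that passed. Ifi27l2a read 8.24, 8.25, 8.39 and 8.35 in spleens of swim mice, against 9.16, 9.15, 9.13 and 9.08 in control spleens, and had the smallest p of all members there (difference -0.82, limma adjusted p = 0.000745). It read 6.62, 6.41, 6.88 and 6.11 in kidneys of swim mice, against 7.47, 7.16, 8.12 and 7.59 in control kidneys (difference -1.08, 2.12-fold lower, limma adjusted p = 0.00457). The gene was also lower in liver (-0.73, adjusted p = 0.0356) and in visceral fat (-0.57, adjusted p = 0.0258), with arrays apart in all 4 organs. In subcutaneous fat its difference was 0.01.

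Rsad2 read 9.66, 10.24, 9.04 and 8.82 in spleens of swim mice, against 10.61, 10.74, 10.70 and 10.44 in control spleens, a 2.27-fold lower level (difference -1.18, limma adjusted p = 0.0257). It read 7.19, 7.49, 7.40 and 7.16 in livers of swim mice, against 8.88, 8.09 and 8.18 in control livers, a 2.10-fold lower level (difference -1.07, limma adjusted p = 0.0231). The swim arrays of spleen spread over a wider range than the control arrays, and both pairs of groups were apart. The spleen call was lost without control array 25, 26 or 27 or swim array 31 (adjusted p up to 0.0679), and the liver call without swim array 53, 54 or 56 (up to 0.0647). Cmpk2 (a mitochondrial nucleotide kinase, head to head with Rsad2 in the mouse genome) was lower in spleen (-0.65, adjusted p = 0.0308) and missed in liver (-0.71, adjusted p = 0.0526). Xaf1, a pro-apoptotic zinc-finger protein, was lower in spleen (-0.28).

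Ifi35, a partner of Nmi, showed its change in muscle, at 6.95, 7.10 and 7.01 in swim mice, against 7.71, 7.54, 7.55 and 7.48 in control mice (difference -0.55, limma adjusted p = 0.0105), with arrays apart. Trim30a, a mouse inhibitor of Toll-like receptor signalling, was higher in visceral fat, at 8.36, 8.40, 8.35 and 8.47 in swim mice, against 8.28, 8.08, 8.07 and 7.95 in control mice (difference 0.30, limma adjusted p = 0.0277). With arrays of visceral fat centred on their medians, which moves the median of all genes there to -0.22, neither Trim30a (0.09) nor Parp14 (0.09) passed. Samd9l (a growth inhibitor and host restriction factor) passed in none of 6 tissues. Tap1, the peptide transporter of antigen presentation, was lower in kidney (-0.33, adjusted p = 0.0059) and passed nowhere else.

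**Figure D4:**
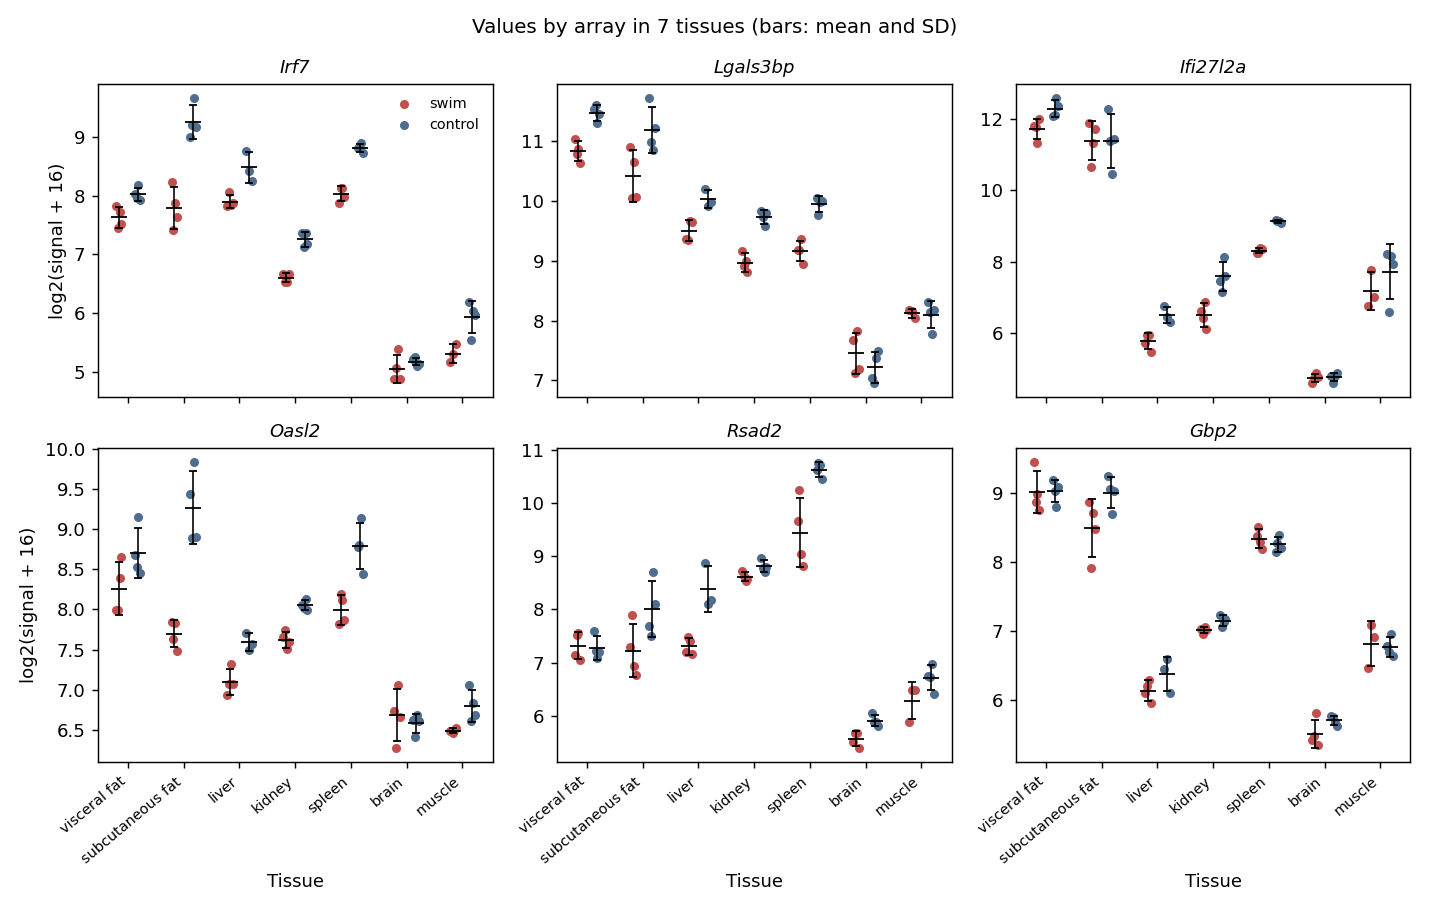
Levels of Irf7, Lgals3bp, Ifi27l2a, Oasl2, Rsad2 and Gbp2 on every array, in log2(signal + 16) after quantile normalization within the tissue, with 1 point per array, bars at the group mean and SD, and swim left of control in each tissue. Irf7, Lgals3bp and Ifi27l2a lie apart in spleen, liver, kidney and visceral fat, while the Gbp2 groups overlap in spleen.

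Counted over tissues, 1 member, Irf7, was lower in 5 tissues, and Lgals3bp and Ifi27l2a were lower in 4. Oasl2, Dhx58 and Usp18 were lower in 3, another 7 members in 2, 14 in 1 and 9 in none. The 9 were Irf9, Stat2, Ifit1, Ifit3, Gbp2, Gbp3, Mx2, Samd9l and Trim30a. The members lower in several tissues are counted from tests with separate control arrays in each tissue, though the labels do not say whether the tissues came from the same mice. How many of all genes were lower in as many tissues was not counted, so these counts have no share beside them. By promoter, 5 of the 12 tested members with ISRE letters and 10 of the 16 without were lower in spleen, with medians of -0.30 and -0.30. In liver the counts were 3 of 10 and 4 of 16, in kidney 1 of 9 and 5 of 16, and in visceral fat 0 of 9 and 4 of 16. The shares of all genes lower were 6.97% in spleen, 2.16% in liver, 13.6% in kidney and 12.1% in visceral fat.

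Subcutaneous fat held the largest differences, and no gene of any kind passed there. Oas1a read 5.35, 5.24, 5.68 and 5.53 in subcutaneous fat of swim mice, against 6.86, 6.64, 6.91 and 6.35 in control mice (difference -1.24, limma adjusted p = 0.166). Oasl2 read 7.84, 7.63, 7.84 and 7.49 in swim mice, against 9.44, 8.88, 9.83 and 8.91 in control mice (difference -1.56, limma adjusted p = 0.166). Irf7 read 8.24, 7.41, 7.87 and 7.63 in swim mice, against 9.00, 9.21, 9.66 and 9.16 in control mice (difference -1.47, limma adjusted p = 0.166). For these 3 genes control array 17, which lacks the B cell signal, sat with the other control arrays.

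Other members split differently in that tissue. Trim30a read 8.26, 8.62, 9.67 and 8.26 in subcutaneous fat of swim mice, against 8.70, 10.54, 11.18 and 10.42 in control mice, so that control array 17 lay within the swim range and swim array 23 above the rest of its group, as their B cell signals did. The same arrays stood out for Tap1, at 8.16, 8.23, 9.20 and 8.71 in swim mice, against 8.70, 10.06, 9.86 and 10.16 in control mice. Oasl1 (-1.88) and Rtp4 (-1.40) were the other 2 of the 5 members with the smallest p, both with an adjusted p of 0.203. The subgroup medians were -1.56 for the Oas family, -1.26 for the transcription factors, -0.97 for the Ifit family, -0.85 for the sensors and kinase and -0.54 for the GTPases.

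Without control array 17, 23 members were lower in subcutaneous fat, where 3976 genes of all kinds passed, Irf7 at -1.53 (limma adjusted p = 0.0136) and Oasl2 at -1.48 (adjusted p = 0.0145). Without control array 17 and swim array 22, 24 members and 4370 genes of all kinds passed, and with array weights 27 members and 5715 genes did. In both settings without control array 17, every control array left had a higher B cell marker mean than every swim array. Swimming and B cell content cannot be told apart in those settings. Without swim arrays 22 and 23 the differences were of like size (Irf7 -1.33, Oas1a -1.19) and 0 members passed in limma's test (adjusted p of Irf7 0.282). With the B cell marker mean as a covariate 0 passed, and the members' median was -0.70. B cell markers as a list had a median difference of -2.36 and a summed signal between 322 and 14206 in swim mice, against 491 to 33872 in control mice. The part of lymphoid tissue in these differences was not tested beyond that covariate.

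**Figure D5:**
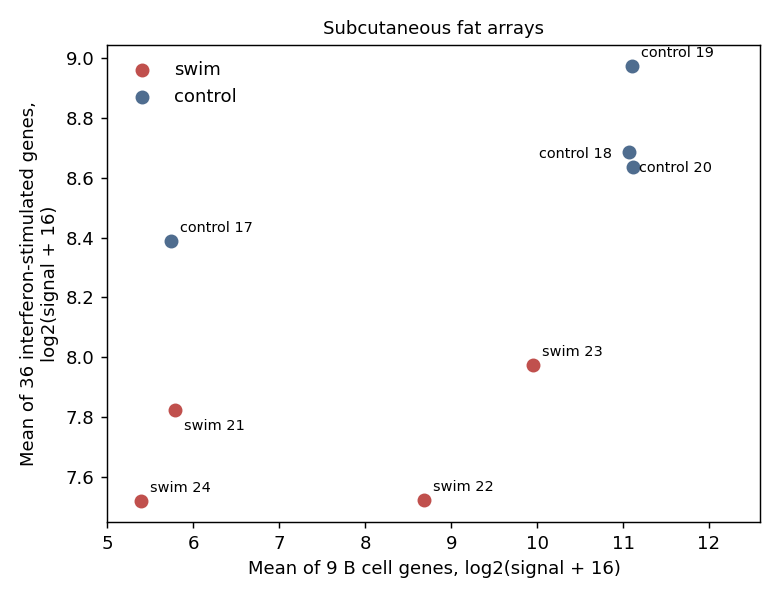
Mean level of the 36 members (vertical axis) against the mean level of 9 B cell markers (horizontal axis) on the 8 subcutaneous fat arrays, both in log2(signal + 16), with swim and control arrays in different colours and labelled by array number. Control array 17 has a B cell mean of 5.74 and a member mean of 8.39, above all swim arrays, which span 7.52 to 7.97.

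In brain the 16 tested members lay between -0.32 and 0.36. Irf9 read 7.09, 7.33, 7.54 and 7.50 in brains of swim mice, against 6.91, 6.91, 7.24 and 6.95 in control brains (difference 0.36, limma adjusted p = 0.199). Ifit2 read 6.08, 5.65, 6.06 and 5.84 in brains of swim mice, against 6.13, 6.15, 6.28 and 6.33 in control brains (difference -0.32, limma adjusted p = 0.205). The arrays overlapped for Irf9 and were apart for Ifit2, and 20 of the 36 measured members were below the filter in brain.

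Whether the organs differed from each other was tested in 1 fit of all 54 arrays with a weight for each tissue's spread. The fit took all arrays as independent, since the labels do not say whether tissues came from the same mice. Its p-values would not account for shared animals. The swim difference varied over the 7 tissues for 23 of 32 tested members, where 47.4% of all 11706 genes did (limma F test, Benjamini-Hochberg adjusted p under 0.05). The smallest adjusted p belonged to Lgals3bp (2.72e-05), Dhx58 (0.00019), Ifi35 (0.000244), Parp12 (0.000493) and Irf9 (0.000744). Each tissue's difference was then set against the mean of the other 6, so that subcutaneous fat, with the largest differences, enters the mean for every other tissue. In spleen 4 members were more negative than elsewhere (Oas2, Parp12, Ifitm3 and Rsad2), where 9.61% of all genes were, and 1 was more positive (Oasl1), where 5.89% were. Rsad2 in spleen was below the mean of the others by -0.72 (SE 0.21, limma adjusted p = 0.0155).

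In brain 6 members were more positive than the mean of the other tissues (Irf7, Irf9, Oasl1, Oasl2, Dhx58 and Lgals3bp), where 0.683% of all genes were, and 0 were more negative (0.589%). Irf7, Oasl1 and Dhx58 were below the low-signal filter in brain, as was Oasl1 in muscle. They entered this fit by their mean over all arrays. Genes of such low signal have little room to fall, so these contrasts cannot show how they changed there. Lgals3bp in brain was above the mean of the others by 0.82 (limma adjusted p = 0.00425). In visceral fat 7 were more positive (Gbp3, Irgm1, Parp12, Parp14, Trim30a, Xaf1 and Tap1), where 6.68% were, and 0 more negative (6.52%). In subcutaneous fat 4 were more negative (Irf9, Oasl1, Trim30a and Tap1), where 1.23% were, and 0 more positive (1.46%). In muscle 1 was more negative (Ifi35), where 6.43% were, and 4 more positive (Oasl1, Usp18, Ifitm3 and Lgals3bp), where 6.09% were. In kidney 2 were more positive (Ifit3 and Ifi35), where 2.98% were, and 0 more negative (5.08%). In liver 0 of 32 differed from the others in limma's test (4.11% of all genes more negative, 2.86% more positive). With subcutaneous fat left out of the fit, 8 members were more negative in liver and 0 more positive (1127 genes of all kinds differed there). In spleen 6 were then more negative and 0 more positive (1369 genes of all kinds), and in kidney 2 and 1 (1357 genes). In the fit of all 7 tissues no Ifit or guanylate-binding gene was more negative in any 1 organ than in the others.

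None of the interferon ligand genes above the filter (2 or 3 in each tissue) passed in any tissue in limma's test, and none of 8 receptor and kinase genes passed in spleen, liver, muscle, brain or subcutaneous fat. In kidney 1 of the 8 was lower, Ifngr1 (-0.19), and 1 higher, Il10rb (0.22), receptor chains for interferon gamma and for interferon lambda. In visceral fat 2 of 8 were higher, Ifnar1 (0.25), a chain of the type I interferon receptor, and Ifngr2 (0.26), a chain of the interferon gamma receptor. These 4 receptor genes were named after their values were seen. Of 6 signal transducers and IRF factors, 2 were lower in liver, where 2.16% of all genes were lower, and 2 lower and 1 higher in kidney, where 13.6% of all genes were lower and 10.8% higher. Irf5, a factor of macrophages downstream of Toll-like receptors, was lower in liver (-0.56, limma adjusted p = 0.00804) and kidney (-0.46, adjusted p = 0.00863). Irf2, which opposes Irf1, was higher in kidney (0.26) and spleen (0.22).

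Nucleic acid sensing genes moved in both directions, 3 lower and 3 higher of 14 in spleen and 2 lower and 4 higher of 14 in visceral fat, beside 6.97% lower and 7.04% higher of all genes in spleen and 12.1% and 11.3% in visceral fat. Tlr7, an endosomal sensor of single-stranded RNA, was lower in spleen (-0.32) and higher in visceral fat (0.64). Tbk1 and Ikbke, kinases that activate IRF factors, were higher in both (Tbk1 0.19 and 0.32, Ikbke 0.41 and 0.30 in spleen and visceral fat). Myd88, the adaptor of most Toll-like receptors, was lower in visceral fat (-0.34) and kidney (-0.22). Of the feedback inhibitors, Trex1, a DNA exonuclease, was lower in spleen (-0.26) and muscle (-0.34).

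Other interferon-induced effectors that are not members were counted in the same way. In kidney 12 of 37 were lower (13.6% of all genes) and 1 higher (10.8%), in spleen 8 of 43 lower (6.97%) and 3 higher (7.04%), and in liver 4 of 40 lower (2.16%) and 0 higher (1.84%). In visceral fat 4 of 40 were lower (12.1%) and 9 higher (11.3%), where 7 members were lower and 2 higher. In muscle 2 of 37 were lower and 4 higher (5.68% of all genes each way), and in brain 0 of 16 passed in limma's test. Ly6e, a membrane protein that blocks coronavirus fusion, was lower in kidney (-0.71, limma adjusted p = 0.000259), liver (-0.55) and visceral fat (-0.46). Ifi30, a lysosomal thiol reductase, was lower in kidney (-0.69) and spleen (-0.33), Isg20, an RNA exonuclease, in visceral fat (-0.78) and kidney (-0.39), and Pml, which forms nuclear bodies, in liver (-0.44) and spleen (-0.35). The chemokine gene Cxcl10 was lower in kidney (-1.12, adjusted p = 0.000251), and Gbp4 was higher in visceral fat (0.75), both named after their values were seen. In class I antigen processing 3 of 11 were lower in kidney and 0 of 11 changed in spleen.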

How the data were processed

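Single-colour Affymetrix whole-transcript arrays (54) were analysed from the deposited series matrix. The deposited intensities, on a linear scale with 1 value per probe set and array, were made by the authors with processing whose notes name PLIER and limma without giving their roles, per the submitters' processing notes. Tool versions, settings and any scaling between arrays are not given in the sources used here, and deposited array medians lay between 45.92 and 118.65. Of 25917 probe sets, 21086 had 1 gene symbol in the platform annotation, 1867 several and 2964 none.

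Within each tissue a pseudocount of 16 was added to the intensities, log2 was taken and the log2 values were quantile-normalized. Probe sets among the 40% with the lowest mean were dropped, the brightest probe set stood for its gene, and swim was tested against control with limma (version 3.58.1, R 4.3.3, statmod 1.5.0), two-sided, with Benjamini-Hochberg adjusted p under 0.05 over all genes tested. Differences between tissues were tested in 1 limma fit of all arrays with weights per tissue, by an F test over 6 contrasts and by 1 tissue against the mean of the other 6. The fits were tested on simulated data. Figures were drawn with matplotlib 3.10.9 in Python 3.11.15. The precision of a value is limited by 3 or 4 arrays per group.

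Named members are those that passed in a tissue, by p, up to 10 (the 5 of smallest p where fewer than 5 passed), the 5 of smallest p in the F test, and Irf7, Oas1a, Ifit1, Isg15, Dhx58 and Gbp2 in every tissue, with other pathway genes that passed in 2 or more tissues, up to 4 a list. Further members are given to account for each subgroup and were named after their values were seen. The members and all lists were chosen with earlier results of these data known. Alternatives covered scaling, pseudocount, filter, array weights, trend and robust options, probe set choice, marker covariates, 1 fit of all arrays and leaving out arrays.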

Additional observations from a re-analysis of the deposited data

Results flagged for a closer look

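On 5 occasions 1 array stood far from the rest of its group for a member (the gap to its nearest neighbour over the group's range exceeded 0.829 in a group of 4), out of 140 member groups examined, where chance alone gives about 1 in 20. Oas3 in spleen read 7.69 on swim array 30 and 7.12 to 7.14 on the other swim arrays. Ifit2 in spleen read 6.93 on swim array 31 and 6.69 to 6.71 on the others. Ifit3 in brain read 7.95 on swim array 39 and 7.40 to 7.48 on the others. Rtp4 in kidney read 7.07 on control array 9 and 7.18 to 7.20 on the other control arrays, and Irf9 in brain read 7.24 on control array 35 and 6.91 to 6.95 on the others. Groups of 3 (control liver and swim muscle) were not examined.

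The swim difference varied between tissues for 23 of 32 members by limma's F test over all 54 arrays, and for 47.4% of all genes. The smallest adjusted p of that F test belonged to Lgals3bp (2.72e-05), Dhx58 (0.00019), Ifi35 (0.000244), Parp12 (0.000493) and Irf9 (0.000744). Set against the mean of the other 6 tissues, 7 members differed in visceral fat, 4 in subcutaneous fat, 2 in kidney, 5 in spleen, 6 in brain and 5 in muscle. Of all genes, 6.52% were more negative and 6.68% more positive in visceral fat, 1.23% and 1.46% in subcutaneous fat, and 5.08% and 2.98% in kidney. These shares were 9.61% and 5.89% in spleen, 0.589% and 0.683% in brain, and 6.43% and 6.09% in muscle. The counts in spleen, kidney and muscle thus stand near the shares of all genes. Among the members that differed, Irf7, Oasl1 and Dhx58 in brain and Oasl1 in muscle were below the low-signal filter of that tissue.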

How the results depend on the processing

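No paired analysis was possible because swim and control arrays share no replicate number. Leaving out 1 array at a time gave 4 to 7 passing members in visceral fat (9 with all arrays), 0 to 23 in subcutaneous fat (0 with all, 23 without control array 17), 1 to 11 in liver (10), 8 to 12 in kidney (10), 8 to 18 in spleen (21), 0 to 0 in brain (0) and 1 to 3 in muscle (3). On the values as deposited the count was 2 in visceral fat, 1 in kidney and 32 in spleen, where the median of all genes moved to -0.10, 0.11 and -0.27, and 11 members passed the F test. Genes of all kinds passing as deposited were 601, 42 and 5127 in these tissues, and 1178 in the F test. In liver the member count was 17 with a pseudocount of 64, 4 with no filter, 16 with the lowest 60% left out, 17 with array weights and 18 with the trend and robust options, and in kidney 4 with the lowest 60% left out. Genes of all kinds passing in these settings were 641, 294, 598, 526 and 707 in liver and 2372 in kidney. Array weights gave 27 in subcutaneous fat and 6 in brain (1 lower, 5 higher), where the estimate of the weights stopped before it converged. Genes of all kinds passing were then 5715 in subcutaneous fat, against 0 in the main test, and 3122 in brain, against 56. The macrophage covariate gave 3 in visceral fat, 0 in liver, 0 in kidney, 1 in spleen and 0 in muscle, and the neutrophil covariate, added after seeing the data, 0 in spleen. Genes of all kinds passing were 1667, 3, 0, 1 and 0 with the former and 0 with the latter. In liver, kidney, spleen and muscle the macrophage signal was itself apart between groups, as was the neutrophil signal in spleen. There these fits cannot separate it from swimming. In 1 fit of all 54 arrays 3 passed in visceral fat, 29 in subcutaneous fat, 3 in kidney and 11 in spleen. Genes of all kinds passing in that fit were 2137, 6518, 359 and 441, in the same order. Without control array 17 and swim array 22, 24 passed in subcutaneous fat. Genes of all kinds passing were then 4370, and 3976 without control array 17 alone. In both cases the B cell marker means of the groups were fully apart.

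In tests of 1 tissue against the others, equal weights gave 3 members in visceral fat, 26 in subcutaneous fat, 0 in kidney, 0 in spleen and 2 in muscle. Of all 11706 genes, 841, 5999, 37, 245 and 402 differed, in the same order. Without subcutaneous fat the member counts were 6 in visceral fat, 8 in liver, 3 in kidney, 6 in spleen, 3 in brain and 3 in muscle. Among genes of all kinds 1776, 1127, 1357, 1369, 57 and 1595 then differed, in the same order. The values as deposited gave 0 members in visceral fat, subcutaneous fat, kidney, brain and muscle and 11 in spleen, and arrays centred on their medians gave 4 in visceral fat, 0 in subcutaneous fat, 1 in kidney, 3 in spleen, 10 in brain and 1 in muscle. As deposited, 153, 9, 0, 11, 46 and 1727 genes of all kinds differed, in the order given. With centred arrays 3632, 4, 521, 655, 108 and 646 did, in the order given.

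The sign changed for Gbp2 in visceral fat without control array 1 (0.0403) or 4 (0.0082) or swim array 6 (0.0327) or 8 (0.0757), with a range of -0.1555 to 0.0757 over single arrays left out. For Gbp2 it also changed in liver with the macrophage covariate (0.118), in kidney as deposited (0.0146), and in spleen as deposited (-0.2256) and with centred arrays (-0.0373). The same held for Gbp2 in muscle as deposited (-0.1027), with the macrophage covariate (-0.272) and without swim array 46 (-0.0862 to 0.2296 over single arrays). It changed for Ifit1 in brain with centred arrays (0.0121), array weights (0.2589), the macrophage covariate (0.0256) and without swim array 38 (-0.1985 to 7e-04), and in muscle with the macrophage covariate (0.0772) and without swim array 45 (-0.203 to 0.0254). None of these passed in the main test. Of called members, Ifi27l2a in kidney turned to 0.0554 with the macrophage covariate, and Rsad2 and Ifitm3 in spleen to 0.063 and 0.0253 with the neutrophil covariate. The cause of these changes was not tested. Of the called members, Lgals3bp in visceral fat kept its call under every alternative run there. Signals near the low-signal filter, as for Oas1a outside spleen and subcutaneous fat, limit what can be read.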
